A study of Mus musculus with 19 samples.

Results

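The surface proteins of thymocytes were compared with the RNA of the genes that encode them. Of the 111 antibodies read in every lane, 98 bind a protein encoded by 1 mouse gene among the 28692 genes of the matrices, and these 98 antibodies stand for 94 genes. Isotype controls were not counted among them. The 13 antibodies left out bind a carbohydrate, a product of several genes, a T cell receptor (TCR) segment or complex, an MHC class II molecule or peptide complex, or the erythroid antigen TER-119. The members were 3 coreceptor antibodies, 10 maturation or selection markers, 6 pan-T or leukocyte proteins, 12 costimulatory or coinhibitory receptors and ligands, 5 cytokine receptors, 6 integrin chains, 8 chemokine receptors, 2 other adhesion proteins, 2 allotype antibodies, 1 isoform antibody, 1 antibody to the intracellular factor IRF4 and 42 markers of other lineages.

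Thymocytes came from 17 female mice aged 4 to 8 weeks, run on 19 lanes in 3 experiments of 3, 8 and 6 mice. The CD4-fated mice were 2 AND and 2 OT-II mice, whose transgenic TCRs see MHC class II, and 2 MHCI-/- mice, which lack B2m and keep diverse TCRs. The CD8-fated mice were 2 F5 and 2 OT-I mice, whose transgenic TCRs see MHC class I, and 2 MHCII-/- mice, which lack H2-Ab1 and also keep diverse TCRs. The other 5 mice were wild-type (C57BL/6). Both the AND and the F5 line lacked Rag1 as well, the AND line came from a B10.Cg background, and the F5 transgene is driven by the CD2 promoter. Cells of the MHCI-/-, MHCII-/- and wild-type replicates 1 to 3, 7 mice in all, had been sorted as CD5+TCRβ+, so CD5 protein was part of how those cells were chosen. The third experiment, which held the OT-I, OT-II and replicates 4 and 5, was done at another site by the study's sample table, so site, experiment and these genotypes cannot be told apart.

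CITE-seq reads both molecules in the same cell: each antibody carries a DNA tag, and tags and polyadenylated transcripts are counted by unique molecular identifiers (UMIs). A surface protein lasts longer than its transcript, can be stored, shed or internalized, and often needs a partner chain to reach the surface, so the level of a protein and of its RNA need not move together. Thymocytes pass from a CD4-CD8- double-negative (DN) stage to a CD4+CD8+ double-positive (DP) stage, where TCR signals select them, and then lose one coreceptor to become CD4 or CD8 single-positive (SP) cells. Here DP, CD4 SP, CD8 SP and DN name gates set on the CD4 and CD8a antibodies alone.

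Of 85389 barcodes, 72054 passed the cell filters and 69266 were kept after removal of 2788 predicted doublets, with 1786 to 7689 cells per lane. The median cell held 1498 to 7204 RNA UMIs and 1100 to 6578 antibody UMIs, and the lowest antibody depth was that of AND replicate 2, where 1901 of 4320 barcodes with good RNA passed. No more than 35 barcode sequences (1.27%) were shared by any pair of lanes. UMIs were summed over each mouse and gate with at least 20 cells, which gave 62 sums: 17 DP, 16 CD4 SP, 14 CD8 SP and 15 DN. CD8-fated mice gave CD4 SP sums too: both MHCII-/- mice (165 and 274 cells), F5 replicate 2 (79) and both OT-I mice (585 and 611). CD4-fated mice gave CD8 SP sums: AND replicate 1 (39) and both OT-II mice (59 and 33). The paper describes CD8-fated cells that pass through a CD4+CD8lo phase, and how many of these cells are such was not tested. The gates carried the RNA of the stages they are named for: mean Zbtb7b, the CD4 lineage factor, was 53.7 CPM (UMIs scaled to a total of 1000000) in the CD4 SP gate and 1.51 CPM in the CD8 SP gate, and Rag1, used for receptor recombination, was 430.3 CPM in the DP gate and 58.8 CPM in the CD4 SP gate. The DN gate held other cells too. The summed RNA of the B cell marker list had a median of 102 CPM there (9.59 to 491) against 4.82 CPM in the DP gate, and the myeloid and dendritic list had 368 CPM against 176 CPM. The NK and innate-like list (Zbtb16, Klrd1 and Nkg7) had 252 CPM in the DN gate (41.7 to 707), 409 CPM in the CD8 SP gate (33.8 to 670.3) and 36.9 CPM in the DP gate (1.69 to 138). Most of that sum was Nkg7, which CD8 T cells express too (mean 344 CPM in the CD8 SP gate), while Zbtb16 had a mean of 0.06 CPM there and 8.11 CPM in the DN gate. The gamma-delta list (Trdc and Sox13) had 373 CPM in the DN gate (178 to 1058) against 129 CPM in DP, and the erythroid list had medians of 1.86 and 2.16 CPM with a highest sum of 6143 CPM in the DN gate and 824 CPM in DP. The part of other cells in the DN results was not tested. Levels below are UMIs per 10000 antibody UMIs for proteins and CPM for RNA, both scaled to the sum's own total, while log2 fold changes are edgeR's, scaled by trimmed mean of M values (TMM), with their standard errors.

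Antibodies to 4 epitopes read the product of 1 gene, Ptprc, which encodes the phosphatase CD45. CD45 is read by a pan-CD45 antibody, CD45.1 and CD45.2 are alleles, and the B220 antibody (CD45R-B220) binds the form that keeps exon 4, known as exon A, which is mostly a B cell form. Exons A, B and C of Ptprc are printed because a 3′ RNA count cannot tell the forms apart while the antibodies can. They lie on chromosome 1, minus strand, of GRCm38, at 138122456 to 138122584 (exon 4), 138120020 to 138120166 (exon 5) and 138117754 to 138117894 (exon 6). Capitals mark the exon, read 5′ to 3′, and lower case the 10 intron bases on either side.
Ptprc exon 4 (A): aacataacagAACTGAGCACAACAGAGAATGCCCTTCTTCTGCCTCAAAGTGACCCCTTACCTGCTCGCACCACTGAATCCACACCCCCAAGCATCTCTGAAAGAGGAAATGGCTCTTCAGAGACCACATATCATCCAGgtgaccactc
Ptprc exon 5 (B): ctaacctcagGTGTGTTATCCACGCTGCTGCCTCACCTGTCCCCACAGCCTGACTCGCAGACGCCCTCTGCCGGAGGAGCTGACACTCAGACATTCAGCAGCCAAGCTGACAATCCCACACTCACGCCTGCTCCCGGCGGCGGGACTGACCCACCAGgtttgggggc
Ptprc exon 6 (C): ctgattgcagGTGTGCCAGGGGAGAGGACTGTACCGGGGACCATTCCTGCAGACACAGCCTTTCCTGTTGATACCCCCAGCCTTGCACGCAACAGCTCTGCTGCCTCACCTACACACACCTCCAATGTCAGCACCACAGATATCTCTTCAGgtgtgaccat
Of the 33 exons, these 3 were in 1 of 3 long coding transcripts of the annotation, and they ended 4749, 4602 and 4461 bases before the transcript's 3′ end. The RNA value of Ptprc is therefore the sum of all forms.

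In the DP gate, which every mouse has, the pan-CD45 antibody was the most abundant of the 98, at 1581 ± 683 UMIs per 10000 (SD, n = 17 mice), with Ptprc at 879.6 ± 178 CPM. The allele antibody CD45.2, the allele of C57BL/6, stood at 101 ± 38.6 per 10000. The antibody to the other allele, CD45.1, stood at 2.93 ± 2.35 per 10000 and CD45R-B220 at 4.14 ± 3.42 per 10000 beside the same Ptprc RNA. Thy1, the glycoprotein CD90 of T cells, gave the same contrast: CD90.2 was at 815 ± 581 per 10000 and CD90.1 at 0.795 ± 0.341 per 10000, with Thy1 at 619.5 ± 136 CPM. The wrong-allele antibodies thus read a floor of a few UMIs per 10000, and CD45.1 and CD45R-B220 were both highest in AND replicate 2, the lane of lowest antibody depth, at 11.3 and 14.9 per 10000.

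Many antibodies with little or no RNA read above that floor. Of the 98 members, 40 had a mean under 1 CPM in the DP gate, and their protein means ran from 0.716 (CD204, a macrophage scavenger receptor) to 36.7 per 10000 (CD140a), with a median of 6.88. CD140a, a growth factor receptor of mesenchyme, is encoded by Pdgfra and read 6.23 to 149.6 per 10000 over the 17 mice with 0 CPM in each. CD335, the natural killer receptor NKp46, read 59.9 and 113 per 10000 in the AND mice, the median of all mice being 13.4, with Ncr1 at 0 to 0.233 CPM. The 41 members at 5 CPM or more, leaving out the wrong-allele antibodies CD45.1 and CD90.1, ran from 4.14 per 10000 (CD45R-B220) to 1581 (CD45), with a median of 31. The ranges of the groups under 1 CPM and at 5 CPM or more overlapped. A mean of 36.7 per 10000 or less thus did not by itself mark a transcribed gene, and single mice read up to 149.6 with 0 CPM. Of the 40 members under 1 CPM, 3 had 0 CPM in every mouse. Across the 98 pairs, Spearman's rho of protein level with RNA level inside 1 mouse was 0.492 ± 0.038 in the DP gate (n = 17 mice, 0.403 to 0.554). It was 0.604 without the allotype, isoform and intracellular antibodies and 0.362 over the pairs at 5 CPM or more. Pairs share the antibody staining and the library, and antibodies differ in affinity and tagging, so these are descriptions.

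**Figure D1:**
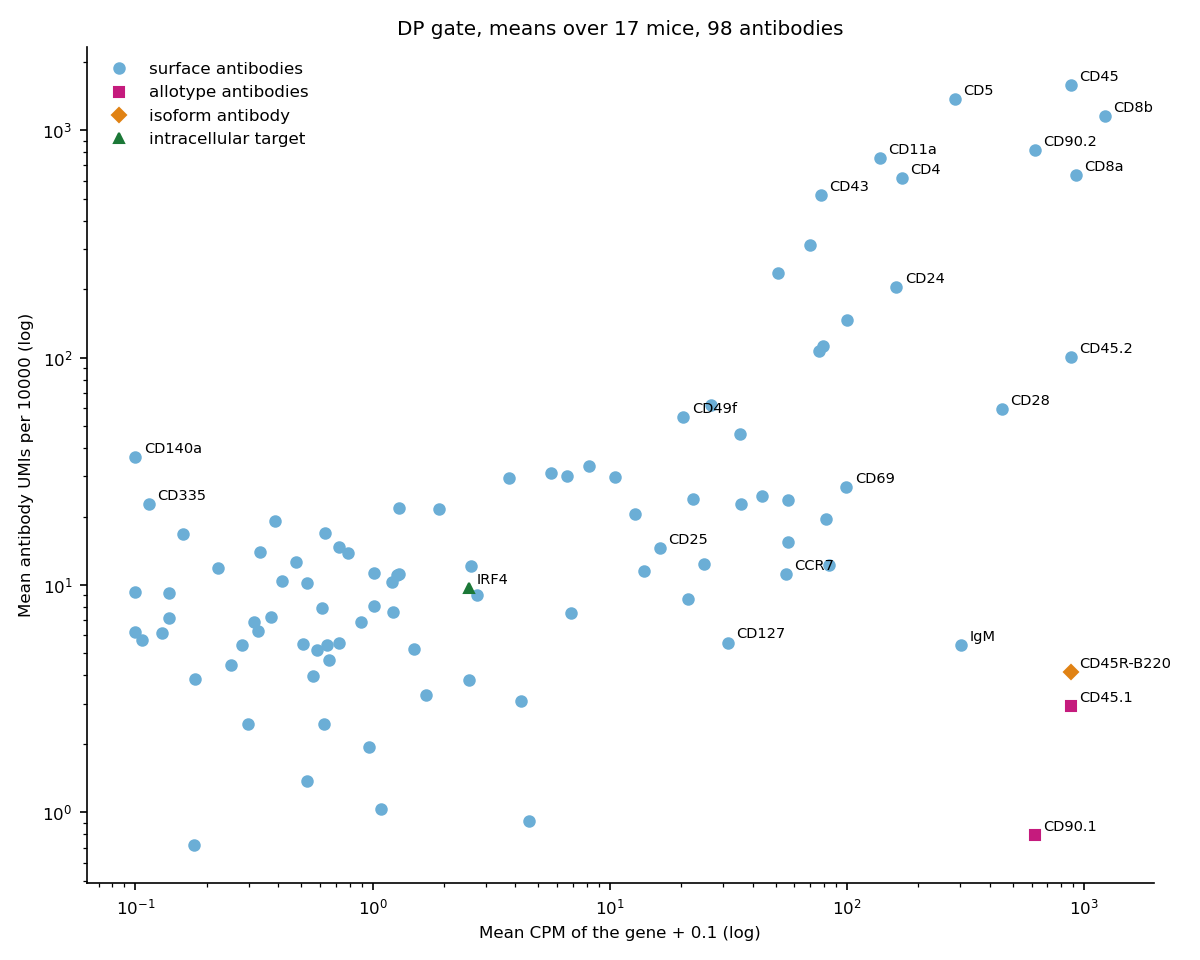
Mean RNA level (CPM, log axis) against mean protein level (UMIs per 10000 antibody UMIs, log axis) of 98 antibodies in the DP gate, each point a mean over 17 mice. CD45 and CD90.2 sit at the top right, and CD45.1, CD45R-B220 and CD90.1 sit far below them at the same or nearly the same RNA level.

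From the DP to the CD4 SP gate (16 mice with both, CD8-fated mice among them), 51 pairs had RNA that passed the low-count filter. Of these, 22 moved the same way (called in both molecules), 12 up and 10 down, and 0 moved in opposite directions. The 10 falls include the wrong-allele antibody CD90.1 (log2 fold change -0.18), and IgM (-0.20) and CD79b (-0.19) at nearly the same size. Pairs not called in both could still diverge: CD5 protein was higher in 14 of 16 mice and Cd5 RNA lower in 13. CD48 protein was lower in 14 of 16 mice and Cd48 RNA higher in 15. The CD48 protein change of -0.14 (edgeR adjusted p = 0.11) was no larger than those of the wrong-allele antibodies. These were -0.14 for CD45.1 and -0.18 for CD90.1, each lower in 12 of 16 mice. A fall of CD48 protein beyond theirs was thus not shown. The filter tests only genes with enough counts in either gate, so the 51 are not all members. CD4 and CD8a, which set the gates, are not among the 96 pairs counted in the gate comparisons. RNA alone changed in 12 pairs, protein alone in 8 and neither in 9. RNA was called in 34 of the 51 (66.67%), against 58.8% of all 10476 genes tested, and protein in 44.79% of the 96 pairs, against 45% of all 111 antibodies. The calls are edgeR's quasi-likelihood test with the mouse as a block, at a Benjamini-Hochberg adjusted p of 0.05 over all genes or all antibodies. The members' shares lay near those of all features. Of the 45 pairs whose RNA was too low to test, 13 proteins were called: CD55, CD73 and NK-1.1 rose and 10 fell by at most 0.23 on the log2 scale.

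The largest fall of the tested pairs was that of the coreceptor's beta chain. CD8b pairs with CD8a, whose antibody set the gate, so its protein fall is in part given by the gate. It is still counted among the shared falls. Its antibody read 559, 1235 and 1428 per 10000 in the DP gate (lowest, median, highest of 17 mice) and 19.6, 44.1 and 94.1 in the CD4 SP gate. Cd8b1 RNA went from 538, 1149.8 and 2855 CPM to 45.0, 73.8 and 287 CPM. Neither molecule's ranges overlapped, and both fell in 16 of 16 mice, protein by 4.65 ± 0.26 (adjusted p = 5.55e-11) and RNA by 3.58 ± 0.20 (adjusted p = 2.53e-09) on the log2 scale.

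Sca-1 and CD278 rose with their RNA. Sca-1, a GPI-linked Ly6 antigen encoded by Ly6a, read 14.6, 30.7 and 51.7 per 10000 in DP and 28.7, 116 and 229 in CD4 SP cells, while Ly6a went from 1.99, 4.90 and 14.3 CPM to 7.41, 72.6 and 135 CPM. Both were higher in 16 of 16 mice, with a log2 fold change of 1.78 ± 0.19 for protein (adjusted p = 8.19e-07) and 3.47 ± 0.27 for RNA (adjusted p = 4.02e-08), and the ranges of the gates overlapped although each mouse rose. CD278 (ICOS, a costimulatory receptor of the CD28 family) rose from a median of 66.4 (13.9 to 119) to 193 per 10000 (29.4 to 668), and Icos from 22.8 (5.84 to 50.8) to 74.8 CPM (1.31 to 249). Both rose in 15 of 16 mice, by 1.59 ± 0.24 (adjusted p = 2.6e-05) and 1.72 ± 0.26 (adjusted p = 1.66e-05).

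CD357 (GITR, a TNF receptor of regulatory T cells) rose from a median of 21.4 (12.3 to 56.6) to 64.4 per 10000 (25.2 to 124), and Tnfrsf18 from 43.4 (15.2 to 55.0) to 73.4 CPM (18.9 to 198). The changes were almost equal, 1.43 ± 0.18 in protein (16 of 16 mice, adjusted p = 5.01e-06) and 1.46 ± 0.18 in RNA (15 of 16, adjusted p = 2.17e-06). CD127, the IL-7 receptor alpha chain that maturing T cells need, stayed low as protein, 3.83 (2.13 to 26.2) against 10.9 per 10000 (6.45 to 31.3), while Il7r went from 34.1 (5.40 to 69.0) to 213 CPM (34.0 to 284). Both were higher in 16 of 16 mice, by 1.32 ± 0.10 (adjusted p = 8.1e-09) and 2.66 ± 0.22 (adjusted p = 4.94e-08). CD304 (neuropilin-1) fell in protein by 1.22 ± 0.23 (15 of 16 mice, adjusted p = 0.000234) and in Nrp1 RNA by 0.69 ± 0.25 (12 of 16, adjusted p = 0.0216), from medians of 22 per 10000 (10.6 to 61.7) and 26.3 CPM (15.1 to 149) to 8.73 per 10000 (3.62 to 179) and 16.3 CPM (4.52 to 88.8). Of the 11 costimulation pairs tested in RNA, 6 changed in both, and of the 3 tested chemokine receptors 0 did. Over all 51 tested pairs it was 22, and the groups were not tested against each other.

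CCR7, CXCR4 and CCR2 changed in RNA with no call in protein. CCR7, which draws selected thymocytes to the medulla, had 60.6 CPM (11.1 to 107) in DP and 296 CPM (11.1 to 451) in CD4 SP cells, a rise of 2.48 ± 0.40 (13 of 16 mice, adjusted p = 3.92e-05). Its antibody read 10.7 (3.19 to 33.6) and 10.5 per 10000 (3.18 to 36.2), higher in 7 and lower in 9 of 16 mice (log2 fold change -0.07 ± 0.05, adjusted p = 0.211). CXCR4, which holds thymocytes in the cortex, lost RNA in 16 of 16 mice, from 86.0 (22.2 to 125) to 14.0 CPM (6.47 to 66.0), a log2 fold change of -2.01 ± 0.24 (adjusted p = 1.57e-06). Its antibody read 11 (5.36 to 21.4) and 9.37 per 10000 (4.09 to 23.6), with a log2 fold change of -0.17 ± 0.10 (adjusted p = 0.181). Both antibodies thus stayed at the level that members without RNA reach. CCR2, a receptor of monocytes and innate-like T cells, had 1.32 (0 to 2.61) and 2.84 CPM (0 to 70.4), higher in 14 of 16 mice by 2.56 ± 0.54 (adjusted p = 0.000506), with protein at 10.3 (5.05 to 27.9) and 9.68 per 10000 (5.13 to 29.1) and a change of -0.05 ± 0.04 (adjusted p = 0.321).

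CD83 and IRF4 also had a call in RNA and none in protein. CD83, an activation antigen, rose in RNA in 15 of 16 mice, from 0.585 (0.166 to 2.83) to 4.36 CPM (0.475 to 37.9) with a log2 fold change of 2.62 ± 0.48 (adjusted p = 0.000136), while its antibody read a median of 1.03 and 1.00 per 10000 (-0.17 ± 0.08, adjusted p = 0.113). That is the floor of the wrong-allele antibodies, so a protein that stayed behind its RNA was not shown. IRF4, a nuclear factor, rose in RNA in 16 of 16 mice, from 2.02 (0.499 to 6.48) to 7.96 CPM (1.31 to 14.2), by 2.02 ± 0.17 (adjusted p = 5.8e-08), and its antibody did not change past the threshold (9.05 and 9.86 per 10000, 0.06 ± 0.07, adjusted p = 0.471). The study's CITE-seq methods kept cells viable during staining and name no permeabilization. Whether this antibody reads nuclear IRF4 was therefore not shown.

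CD69, CD28, CD45 and CD11a changed as protein between DP and CD4 SP cells with no RNA call. CD69, an early marker of TCR signalling that keeps cells in the thymus, rose from 26.4 (11 to 48.9) to 60.7 per 10000 (7.23 to 83.2) in 15 of 16 mice, by 0.94 ± 0.19 (adjusted p = 0.000459). Cd69 RNA had 80.2 (31 to 241) and 88.0 CPM (9.80 to 135), higher in 7 and lower in 9 mice (-0.01 ± 0.19, adjusted p = 0.962). CD28, the costimulatory receptor for CD80 and CD86, fell as protein from 60.0 (36.4 to 101) to 25 per 10000 (17.4 to 79.0), by 0.91 ± 0.14 (14 of 16 mice, adjusted p = 3.38e-05). Cd28 RNA was also lower in 14 of 16 mice, from 408 (180.0 to 805) to 350.0 CPM (104 to 469), but its change of -0.21 ± 0.12 missed the threshold (adjusted p = 0.141).

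CD45 rose in protein in 16 of 16 mice, from a median of 1624 (374 to 2809) to 2014 per 10000 (641 to 3272) with a log2 fold change of 0.31 ± 0.07 (adjusted p = 0.000945), while Ptprc was higher in 11 of 16 mice (0.19 ± 0.10, adjusted p = 0.108). CD11a, the alpha chain of the integrin LFA-1, rose in 15 of 16 mice, by 0.29 ± 0.08 (adjusted p = 0.00822), with Itgal at 0.17 ± 0.09 (adjusted p = 0.126). The intervals of the RNA and protein changes of CD45 and CD11a overlap, so a change in 1 molecule alone was not shown for them. CD55, a complement regulator, had RNA below the filter (0.367 CPM, 0 to 1.51, in DP), yet its antibody rose in 16 of 16 mice, from 2.16 (1.62 to 5.65) to 6.45 per 10000 (3.07 to 27.2), a log2 fold change of 1.58 ± 0.19 (adjusted p = 2.98e-06).

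**Figure D2:**
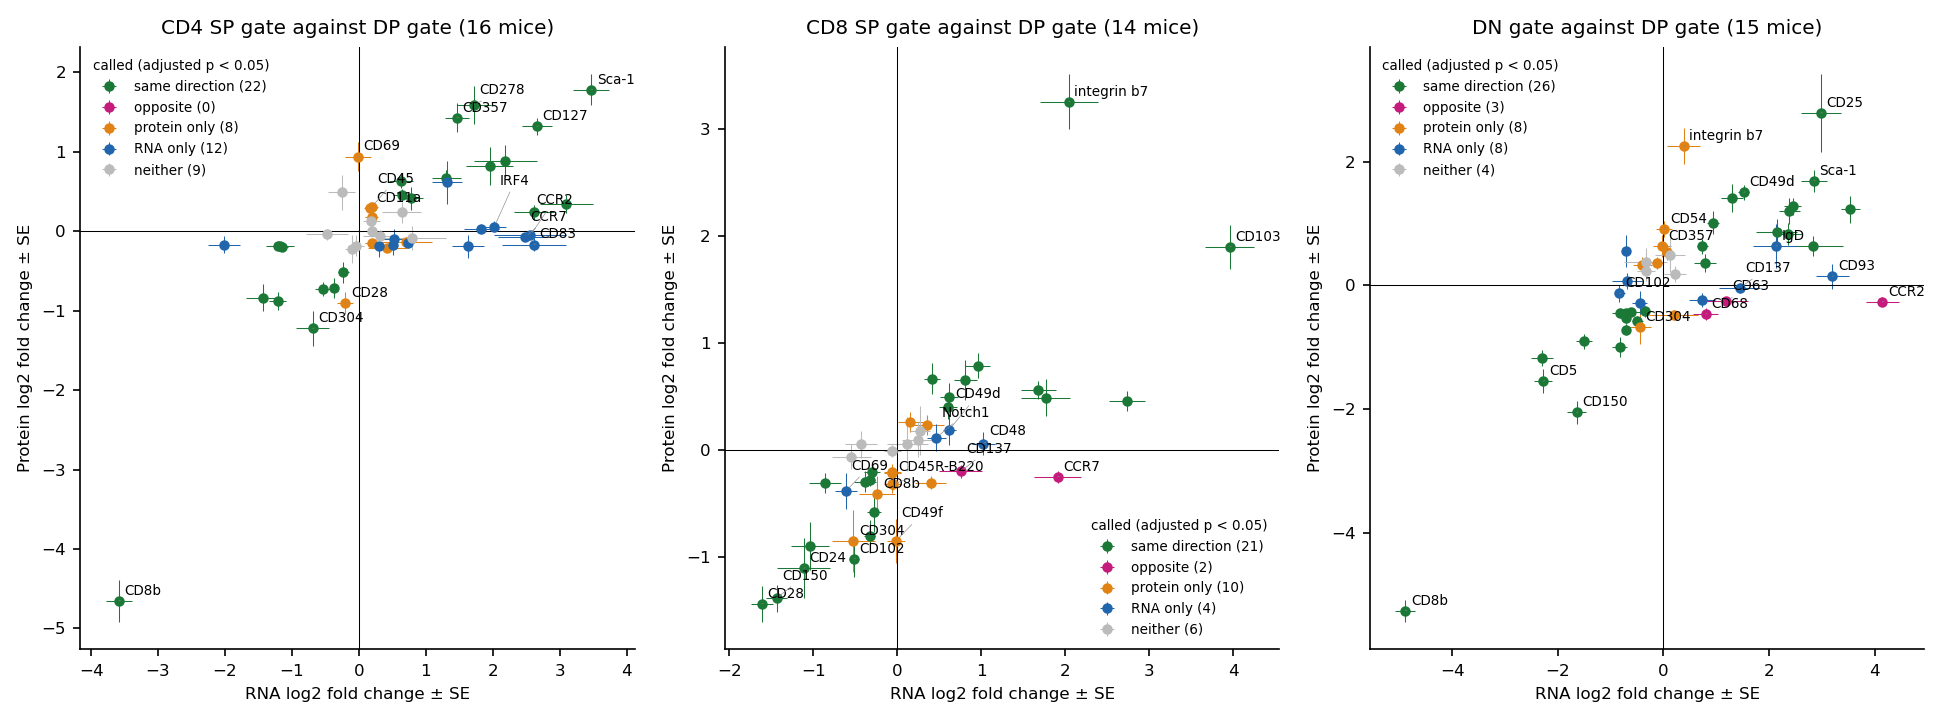
Log2 fold change of RNA (horizontal) and of protein (vertical) against the DP gate for the pairs tested in the CD4 SP, CD8 SP and DN gates, with standard errors as bars and colours for pairs called in both, in 1 or in neither molecule. CD8b lies at the lower left of the CD4 SP and DN panels, and in the CD4 SP panel CCR7, CCR2 and CD83 lie to the right along a protein change near 0.

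From the DP to the CD8 SP gate (14 mice, CD4-fated mice among them), 21 of 43 tested pairs moved the same way. These were 10 up and 11 down (13 and 6 with antibodies scaled by library size). Another 2 moved in opposite directions. Protein alone changed in 10, RNA alone in 4 and neither in 6. RNA was called in 62.79% of the tested pairs, against 54% of all 9970 genes, and protein in 69.79% of the 96 pairs, against 66.7% of the 111 antibodies. Of the 67 proteins called, 15 were higher and 52 lower, and this split rests on the scaling: with library-size scaling in place of TMM, 24 were higher and 9 lower and the median change of all 111 antibodies went from -0.22 to 0.03. The antibodies to the absent alleles fell too, CD45.1 by 0.20 and CD90.1 by 0.28 on the log2 scale. CD90.1 is also counted among the 11 shared falls. Among the 53 pairs with RNA too low to test, 31 of 34 called proteins fell, with a median of -0.29 (-0.43 to -0.16), the size at which the allele antibodies fell. This comparison shares its DP sums with the CD4 SP and DN comparisons.

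Integrins changed in both molecules in 4 of 6 pairs, integrin b7 and CD103 upward and CD11a and CD29 downward. The CD11a protein change of -0.21 (adjusted p = 0.0443) was the size of that of the wrong-allele antibody CD45.1 (-0.20), and per 10000 CD11a was higher in 8 and lower in 6 of 14 mice. Integrin b7 (Itgb7), the beta chain that pairs with CD103 or CD49d, read 19.8 (9.04 to 51.8) in DP and 211 per 10000 (77.2 to 619.7) in CD8 SP cells, with no overlap and a rise in 14 of 14 mice of 3.25 ± 0.25 (adjusted p = 3e-08). Itgb7 RNA rose in 12 of 14 mice, from 42.7 (10.7 to 144) to 203 CPM (28.2 to 343), by 2.04 ± 0.35 (adjusted p = 9.1e-05). CD103 (Itgae), which binds E-cadherin on epithelium, rose from 32.7 (8.34 to 53.9) to 97.1 per 10000 (27.6 to 212) in 14 of 14 mice, by 1.90 ± 0.20 (adjusted p = 1.31e-06), and Itgae from 4.82 (0.506 to 24.5) to 95.1 CPM (1.56 to 164) in 13 of 14, by 3.96 ± 0.29 (adjusted p = 1.92e-08). The order of the sizes was reversed between the chains: protein moved more than RNA for integrin b7 and less for CD103.

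Falls shared by both molecules included CD150, CD28, CD24 and CD102. CD150 (Slamf1, an adhesion receptor of DP cells) fell from 223 (108 to 379) to 88.2 per 10000 (64.1 to 169.9) and from 51.8 (26.5 to 79.7) to 16.1 CPM (0 to 28.1), by 1.38 ± 0.12 and 1.44 ± 0.13 in 14 of 14 mice. CD28 fell by 1.43 ± 0.17 in protein (adjusted p = 3.6e-06) and 1.61 ± 0.13 in RNA (adjusted p = 5.86e-08), again in 14 of 14 mice. CD24 (Cd24a), the heat-stable antigen lost at maturation, fell in 11 of 14 mice in both, by 1.1 ± 0.28 (adjusted p = 0.0027) and 1.11 ± 0.31 (adjusted p = 0.00633). CD102 (Icam2), a ligand of LFA-1, fell by 1.01 ± 0.17 in protein and 0.52 ± 0.06 in RNA.

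CCR7 and CD137 moved in opposite directions in this comparison, but library-size scaling turned their protein changes to 0.0011 and 0.05, and DESeq2 gave -0.07 (adjusted p = 0.0296) and -0.02 (adjusted p = 0.645). With RNA filters only, CD137 protein had 0.01. Ccr7 RNA rose from 60.6 (11.1 to 107) to 181 CPM (15.6 to 316) in 12 of 14 mice, by 1.91 ± 0.28 (adjusted p = 2.14e-05), while its antibody had -0.25 ± 0.06 (adjusted p = 0.00153), was higher per 10000 in 8 of 14 mice and read a median of 11.2 (2.73 to 16.2). CD137 (4-1BB, Tnfrsf9, a TNF receptor induced by TCR signals) had RNA of 11.4 CPM (0 to 54.0) and a change of 0.75 ± 0.26 (8 of 14 mice, adjusted p = 0.0208), with protein at 8.05 per 10000 (3.67 to 24.8) and -0.20 ± 0.06 (adjusted p = 0.00856). These antibody changes are of the size of the allele antibodies' own falls. The CCR7 protein call was lost on leaving out F5 replicate 2, MHCII-/- replicate 1 or 2, OT-I replicate 1 or wild-type replicate 2 or 3 (-0.18 to -0.08), and the CD137 call on leaving out any of these, OT-I replicate 2 or OT-II replicate 1 (-0.13 to -0.02).

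CD48, a ligand of the SLAM family, and CD49d had an RNA call and no protein call, although per 10000 CD48 protein was higher in 14 of 14 mice and CD49d in 13 of 14. Cd48 rose from 82.5 (30.1 to 108) to 140.0 CPM (50.7 to 239.8), by 1.02 ± 0.14 (adjusted p = 1.03e-05), while CD48 protein had 114 (62.8 to 145) and 145 per 10000 (103 to 229.6) and a TMM-scaled change of 0.06 ± 0.11 (adjusted p = 0.611). CD49d (Itga4) rose in RNA by 0.62 (adjusted p = 4.2e-06) and had a protein change of 0.19 (adjusted p = 0.232). CD69 protein had -0.38 ± 0.17 (adjusted p = 0.0575) and Cd69 RNA fell in 14 of 14 mice by 0.61 ± 0.13 (adjusted p = 0.000926), to medians of 21.7 per 10000 and 51.8 CPM. CD8b, whose gate is set by its partner CD8a, fell in protein by 0.41 ± 0.16 (9 of 14 mice, adjusted p = 0.0352), a call lost on leaving out any 1 of 13 of the 14 mice (adjusted p = 0.0536 to 0.275), all but F5 replicate 1, and Cd8b1 had -0.24 ± 0.21 (adjusted p = 0.361).

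**Figure D3:**
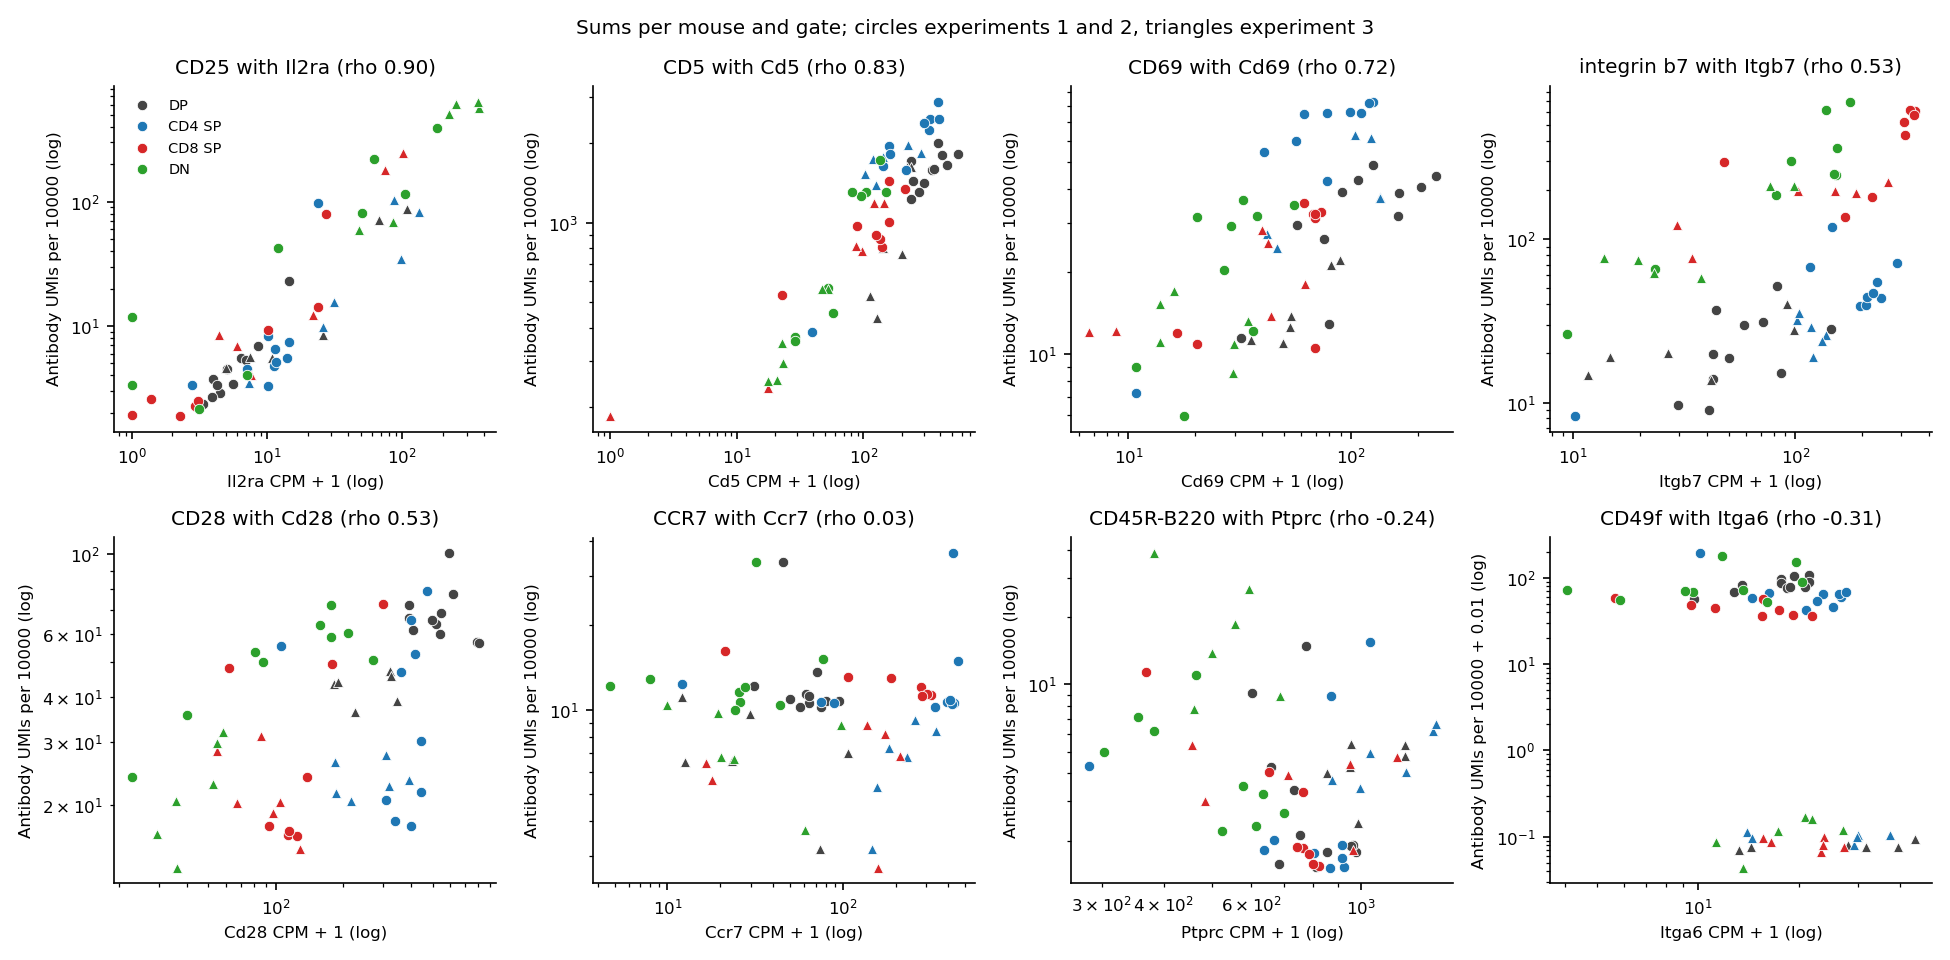
RNA (CPM, log axis) against protein (UMIs per 10000, log axis) for CD25, CD5, CD69, integrin b7, CD28, CCR7, CD45R-B220 and CD49f, 1 point per mouse and gate (62 sums), coloured by gate, with circles for experiments 1 and 2 and triangles for experiment 3. CD25 rises along 1 line, CCR7 spreads only along RNA, integrin b7 separates the CD8 SP and DN gates from DP by protein, and the CD49f triangles lie at the bottom of the protein axis.

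From the DP to the DN gate (15 mice), 26 of 49 tested pairs moved the same way, 13 up and 13 down (19 and 7 with antibodies scaled by library size). Of the rest, 3 moved in opposite directions, RNA alone changed in 8, protein alone in 8 and neither in 4. The DN sums held 28 to 643 cells each, with 29 in AND replicate 2 and F5 replicate 1. Those of wild-type replicates 1 to 3 and MHCII-/- replicates 1 and 2 held 28 to 55 cells. These mice were sorted as CD5+TCRβ+, so CD5 was part of how their DN cells were chosen. RNA was called in 75.51% of tested pairs, against 51.4% of all 10137 genes, and protein in 65.62%, against 66.7% of all antibodies. These pairs count Ptprc and Thy1 once per antibody, while the share of all genes counts each gene once. Of the proteins called, 25 were higher and 38 lower, which became 71 and 7 under library-size scaling, where the median of all antibodies moved from -0.07 to 0.42. The marker RNA of other cells in the DN gate is given above, and fewer cells of a type cannot be told apart from less RNA or protein per cell. Shared changes covered 6 of 7 tested maturation markers, 4 of 4 tested cytokine receptors and 5 of 6 pan-T proteins. They also covered 3 integrin, 2 costimulation, 2 other-lineage, 2 allotype, 1 chemokine receptor and 1 coreceptor pair, and 0 adhesion pairs.

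CD25 (Il2ra), the IL-2 receptor alpha chain of DN thymocytes and regulatory T cells, had a wide range of levels, 5.37 (2.35 to 86.9) in DP and 80.2 per 10000 (2.17 to 635) in DN cells, with Il2ra at 5.48 (2.36 to 107) and 60.6 CPM (0 to 369.6). The changes were 2.79 ± 0.62 in protein (13 of 15 mice, adjusted p = 0.00086) and 2.98 ± 0.38 in RNA (12 of 15, adjusted p = 3.27e-06). CD49d rose by 1.5 ± 0.12 in protein (adjusted p = 2.5e-08) and 1.52 ± 0.11 in RNA (adjusted p = 3.06e-09), in 15 of 15 mice, from 12.9 (7.88 to 32.8) to 59.1 per 10000 (23.6 to 124) and from 53.0 (34.3 to 104) to 145 CPM (81.1 to 223). Sca-1 rose by 1.69 ± 0.18 and 2.85 ± 0.25.

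The 38 lower protein calls held 19 of the 42 markers of other lineages, 5 of 8 chemokine receptors, 4 of 6 pan-T proteins and 4 of 12 costimulation pairs. Of all 111 antibodies 40.5% were called lower, and no group was tested against that share. The 13 shared falls held IgM, CD45.1 and CD90.1 beside T cell proteins. CD8b fell by 5.25 ± 0.18 (adjusted p = 2.17e-14) with Cd8b1 at -4.89 ± 0.19 (adjusted p = 1.84e-12), without overlap in 15 of 15 mice. Its partner CD8a set the gate, so its protein fall is in part given by the gate. CD150 fell by 2.05 ± 0.18 (adjusted p = 7.62e-08) with Slamf1 at -1.64 ± 0.17. CD5, a negative regulator whose level follows TCR signal strength, fell from 1583 (435 to 2009) to 561 per 10000 (251 to 1729) in 13 of 15 mice, by 1.55 ± 0.20 (adjusted p = 4.58e-06), and Cd5 from 244 (112 to 553) to 51.1 CPM (16.6 to 151) in 15 of 15, by 2.27 ± 0.17 (adjusted p = 4.38e-09). CD28 fell by 1.17 with Cd28 at -2.30. CD45 fell by 0.53 ± 0.09 and Ptprc by 0.70 ± 0.08, the latter in 15 of 15 mice. Per 10000, CD45 protein was higher in 7 and lower in 8 of the 15 mice, and the wrong-allele antibody CD45.1 fell by 0.45 in the same comparison, a change of 0.04 under library-size scaling.

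CD54, CD357, CD102 and integrin b7 changed in 1 molecule in the DN gate. Their counts of mice for protein are to be read beside those of FceRIa, CD14 and CD300LG given above. Integrin b7 protein rose in 15 of 15 mice, to 211 per 10000 (26.3 to 694), by 2.25 ± 0.29 (adjusted p = 4.65e-06), with Itgb7 at 80.7 CPM (8.39 to 174), higher in 9 of 15 mice (0.38 ± 0.32, adjusted p = 0.329). CD54 (ICAM-1) rose in 15 of 15 mice from 19.8 (6.97 to 42.2) to 53.6 per 10000 (23.2 to 111), by 0.92 ± 0.13 (adjusted p = 1.19e-05), with Icam1 at 11.8 (3.53 to 22.7) and 10.5 CPM (4.31 to 25.3) and a change of 0.02 ± 0.15 (adjusted p = 0.939). CD357 rose by 0.64 ± 0.18 (15 of 15 mice, adjusted p = 0.00409) with Tnfrsf18 at -0.02 ± 0.17 (adjusted p = 0.92). In the other direction, CD102 protein had no call (-0.13 ± 0.14, adjusted p = 0.401) while Icam2 fell in 15 of 15 mice by 0.83 ± 0.10 (adjusted p = 2.08e-06).

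Of the members of other lineages, CD93, a receptor of early B cells and endothelium, rose in RNA from 1.17 (0.505 to 4.79) to 14.4 CPM (0 to 36.1), by 3.20 ± 0.31 (adjusted p = 1.66e-07), with protein at 0.15 ± 0.20 (adjusted p = 0.512). IgD (Ighd), of B cells, rose in RNA by 2.13 ± 0.43 (adjusted p = 0.000423), with protein at 9.60 per 10000 (2.66 to 70.2) against 4.19 (2.46 to 17.7) and a change of 0.63 ± 0.36 (adjusted p = 0.119). The 3 pairs called in opposite directions were CCR2 (-0.27 ± 0.07 in protein, 4.15 ± 0.32 in RNA), CD63 (-0.26 ± 0.06 and 1.19 ± 0.41) and CD68 (-0.46 ± 0.10 and 0.80 ± 0.23), and under library-size scaling their protein changes turned to 0.23, 0.24 and 0.03. CCR2 per 10000 was higher in 12 of 15 mice and CD63 in 14 of 15. The CCR2 protein call was lost without OT-I or OT-II replicate 1 or 2 (-0.21 to -0.17), the CD63 protein call without OT-I replicate 1 or OT-II replicate 1 or 2, and the Cd63 RNA call without OT-I replicate 1, OT-II replicate 1 or wild-type replicate 4. CD45R-B220 read 7.17 per 10000 (2.20 to 38.6) in the DN gate against 3.36 (1.53 to 14.9) in DP, higher in 14 of 15 mice by 0.56 ± 0.26 (adjusted p = 0.0657), while the RNA of Ptprc, whose exon 4 it reads, fell.

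In the 3 gate comparisons the protein change was smaller in size than the RNA change in 16 of 22, 16 of 21 and 18 of 26 pairs that moved the same way (CD4 SP, CD8 SP and DN). The median sizes were 0.72 against 1.26, 0.66 against 0.86 and 0.94 against 1.51 on the log2 scale. The protein levels include each antibody's own floor, and its part in these sizes was not tested.

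CD4 and CD8a set the gates, so their protein levels are given as a description. CD4 read 577 (283 to 1024) in DP, 856 (363 to 1546) in CD4 SP, 28.8 (20.5 to 53.4) in CD8 SP and 32.7 per 10000 (15.1 to 45.21) in DN cells, and CD8a 679 (378 to 788), 32.7 (15.7 to 70.4), 693 (355 to 895) and 35.2 (18.4 to 47.1). Their RNA was not used for the gate: Cd4 had 165, 183, 3.42 and 3.35 CPM at the median and Cd8a 940.0, 30.1, 652 and 17.4 CPM. Cd4 RNA changed by 0.08 in CD4 SP, -4.98 in CD8 SP and -5.19 in DN cells, and Cd8a by -4.55, -0.46 and -5.45.

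Between CD4-fated and CD8-fated mice, DP cells were compared in a model that also held the genotype family (6 mice against 6). No pair of the 51 tested was called in either molecule, beside 3 of 10645 genes (0.0282%, with 0.00939% higher and 0.0188% lower in CD4-fated mice) and 0 of 111 antibodies (0%). At an unadjusted p under 0.05, edgeR had 8 of the 49 genes and 8 of the 98 member proteins, and DESeq2 12 genes and 18 proteins. With DESeq2, 2 genes, Il2rb (adjusted p = 5.21e-05) and Itgb7 (0.000213), and 0 proteins passed adjustment. Shares of all genes or antibodies were not counted at the unadjusted threshold or without the low-count filter, so no excess among members is shown. With no low-count filter, 9 pairs were called in RNA and 0 in protein, among them Il2rb (adjusted p = 2.84e-10), Itgb7 (1.42e-07), Itgae (0.00039), Il2ra (0.0008), Ccr7 (0.00116) and Nrp1 (0.00341). Integrin b7 leaned to CD8-fated mice in both molecules, 16.9 (9.04 to 51.8) against 29.1 per 10000 (15.3 to 40.2) and 40.1 (25.7 to 81.4) against 87.8 CPM (57.8 to 144), with log2 fold changes of CD4-fated over CD8-fated of -0.85 ± 0.35 (adjusted p = 0.361) and -1.12 ± 0.21 (adjusted p = 0.114). The ranges overlapped in both molecules. Without AND replicate 1, integrin b7 was called in both (-1.20 in protein, adjusted p = 0.0221, and -1.31 in RNA, adjusted p = 0.0297), and without F5 replicate 2 in RNA (-1.23, adjusted p = 0.0487). With a replicate block (same-numbered mice of each family taken as pairs), Itgb7 RNA was called (-1.14, adjusted p = 0.0454) and its protein was not. CD122 (Il2rb), the beta chain shared by the IL-2 and IL-15 receptors, had Il2rb RNA of 1.22 (0.378 to 2.41) against 8.36 CPM (1.75 to 11.2), -2.54 ± 0.45 (adjusted p = 0.114), with protein at 2.67 (1.90 to 8.29) and 2.47 per 10000 (2.13 to 3.42), near the allele antibodies' floor. Il2rb RNA was called with the replicate block (-2.56, adjusted p = 0.0377), without AND replicate 1 (-2.91, adjusted p = 0.0289), without F5 replicate 2 (-2.73, adjusted p = 0.0188) and with the gate thresholds multiplied by 1.5 (-2.67, adjusted p = 0.025).

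CD5 protein in DP cells was compared across genotypes as a level: the 2-mouse means were 1663 (AND), 1722 (F5), 1701 (MHCI-/-), 1266 (MHCII-/-), 1622 (OT-I) and 782 per 10000 (OT-II), against 1167 ± 643 in 5 wild-type mice. CD69 was 28.1, 12.2, 41.7, 46.1, 21.7 and 11.1 per 10000 in the same order and 27.6 in wild-type mice. The MHCI-/- and MHCII-/- cells, with the highest CD69, had been sorted as CD5+TCRβ+, so their CD5 levels are of cells chosen in part on CD5. Wild-type replicates 1 to 3 had been sorted too and replicates 4 and 5 had not, so the wild-type means pool both kinds. CD4-fated and CD8-fated mice did not differ past the threshold in CD5 (-0.54 ± 0.33, adjusted p = 0.388) or in CD69 (-0.26). The sizes of these protein changes depend on the scaling. With library-size scaling in place of TMM, the median change of all 111 antibodies in this comparison went from 0.058 to 0.37. CD25 in DP cells was led by the OT-II mice, at 71.3 and 86.9 per 10000 with 67.0 and 107 CPM, where the other 15 mice ran from 2.35 to 23.1 per 10000.

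Over all 62 sums, protein and RNA of the 50 pairs with a mean of at least 5 CPM had a median Spearman's rho of 0.486 (interquartile range 0.076 to 0.639), with 25 pairs above 0.5 and 11 below 0. Sums of 1 mouse share a library and gates differ in makeup, so no p is given. The highest were CD25 (0.90), CD8b (0.88), CD304 (0.88), CD8a (0.86), CD278 (0.84), CD5 (0.83), Sca-1 (0.82) and CD4 (0.81), the coreceptors in part through the gate. The lowest were CD137 (-0.39), CD49f (-0.31), CD45R-B220 (-0.24), CD48 (-0.12), Notch1 (-0.05), CD102 (-0.05), CD45.1 (-0.04) and CD11a (-0.02). By group, the median was 0.864 for 3 coreceptors, 0.668 for 8 maturation markers, 0.622 for 4 cytokine receptors, 0.570 for 6 integrins, 0.447 for 8 costimulation pairs, 0.419 for 6 markers of other lineages, 0.412 for 6 pan-T proteins, 0.145 for 4 chemokine receptors, 0.084 for the 2 wrong-allele antibodies, -0.035 for 2 adhesion proteins and -0.245 for the B220 isoform. The groups were small and their ranges were not tested against each other.

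Where the variation came from differed between pairs. CD25 and CD69 followed their RNA also among the 17 DP sums alone (rho 0.946 and 0.880, against 0.901 and 0.716 over all sums). CD45 had 0.723 and 0.450, but over all gates within experiments 1, 2 and 3 it had 0.527, 0.006 and 0.610. CD4, CD24 and CD103 followed their RNA between gates of 1 mouse, with 0.925, 0.852 and 0.867 after centring on each mouse. Among DP sums they followed it little (-0.039, 0.110 and 0.186). CD4 protein set the gates, so its centred value is in part given by the gate. CD127 had 0.603 over all sums, 0.898 centred on the mouse and 0.375 in DP. CCR7 was near 0 in all 3 readings (0.028, -0.219 and -0.039). The 17 DP sums pool the 7 mice sorted as CD5+TCRβ+ with unsorted mice of the 3 experiments. The part of the sort in the DP values, that of CD69 among them, was not tested.

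**Figure D4:**
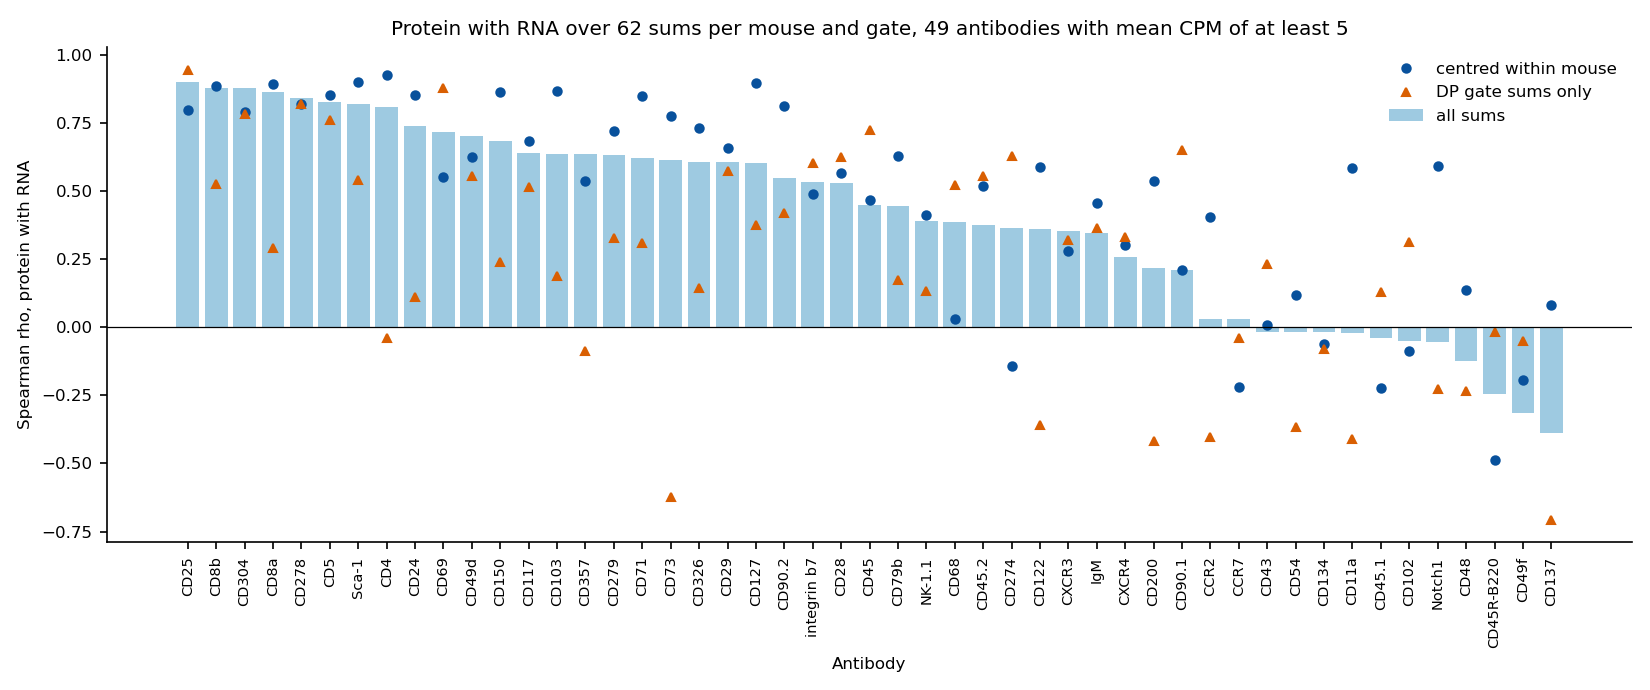
Spearman's rho of protein and RNA over 62 sums (bars) for 49 of the 50 pairs with a mean of at least 5 CPM, with dots for the rho after centring on each mouse and triangles for the 17 DP sums alone. CD25, CD8b and CD304 head the order at 0.88 to 0.90, CD137 and CD49f close it at -0.39 and -0.31, and for CD11a and Notch1 the dots lie far above the bars.

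CD11a and Notch1 lay near 0 over all sums (-0.020 and -0.055) and at 0.586 and 0.591 once centred on the mouse. Within experiments 1, 2 and 3, CD11a had a rho of 0.291, 0.372 and 0.788 and Notch1 of -0.164, 0.267 and 0.717, and in wild-type mice they had 0.371 and -0.454. CD49f (Itga6, the integrin alpha 6 chain of laminin receptors) read 57.5 to 108 per 10000 in the DP sums of the 11 mice of experiments 1 and 2 and 0.06 to 0.08 in the 6 mice of experiment 3, where Itga6 had 12.3 to 43.3 CPM. In experiment 3 the tag of CD49f had 1204 UMIs in all, 94 to 270 per lane, beside 16.6 to 51.3 per lane on average over the 99 other features listed there, which are outside the panel and of which the highest had more UMIs than CD49f in every lane (up to 1534). The rho of -0.314 of CD49f spans both kinds of sum, and the cause was not tested.

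CD137 stood apart among DP sums, with a rho of -0.706 over 17 mice of all 3 experiments. Over all gates it had -0.523, -0.267 and 0.391 within experiments 1, 2 and 3 and 0.081 centred on the mouse. Wild-type replicates 1 to 3 had 31.4 to 38.6 CPM of Tnfrsf9 and 5.43 to 5.70 per 10000, while AND replicate 2 had 57.7 per 10000 with 0.57 CPM. Within mice, cells with a Tnfrsf9 UMI had 2.37 times the CD137 level of cells without one (median of 10 mice, 0.90 to 2.80). The order among mice and the order among cells thus had opposite signs for CD137, but they were read in 17 and in 10 mice. Mice with fewer than 20 cells holding a Tnfrsf9 UMI were left out of the second, so an opposition within the same mice was not shown. AND replicate 2 also had the highest CD45.1 level. Whether the antibody depth of that lane lies behind its values was not tested.

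Antibodies to 1 gene, or to chains that pair, were set against each other over the same 62 sums. CD45 and CD45.2 protein moved together (rho 0.831), CD45 and CD45R-B220 did not (-0.058), and CD45.1 had 0.559 with CD45R-B220. CD90.1 and CD90.2 had -0.046. Integrin b7 protein had a higher rho with the RNA of its partner Itgae (0.796) than with its own Itgb7 (0.534), while CD103 protein had 0.637 with Itgae and 0.503 with Itgb7. CD11a had 0.518 with Itgb2, its beta chain, and -0.020 with Itgal. CD8b had 0.905 with Cd8a and 0.880 with Cd8b1, nearly equal values. CD49d had 0.702 with its own Itga4, 0.455 with Itgb1 and -0.470 with Itgb7. Both partner genes of a complex differ between the same gates, and the differences between these values were not tested.

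The comparison was repeated inside each mouse and gate, between cells with and without a UMI of the gene, as the ratio of mean protein per 10000. In the DP gate 42 pairs had at least 10 mice with 20 cells of each kind, CD4, CD8a and the allele antibodies left out. The median ratio over these pairs was 1.33, 40 were above 1, 27 above 1.2 and 28 above 1 in every mouse. The wrong-allele antibodies had ratios of 0.910 (CD45.1) and 1.03 (CD90.1). A cell with a UMI is on average a deeper cell, so cells were also thinned to 3000 RNA UMIs, which left out 21943 shallower cells: 33 pairs then had a median of 1.21, 30 of them above 1 and 15 above 1 in every mouse, with 0.988 and 0.995 for the allele antibodies. The CD4 SP gate had a median of 1.36 over 37 pairs and the CD8 SP gate 1.26 over 28 pairs.

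Among the DP pairs, CD25 had the highest ratio of those seen in at least 10 mice, 8.38 (13 mice, 2.45 to 26.8), followed by CD304 with 6.82 (17 mice, 2.38 to 12.7) and Sca-1 with 4.67 (13 mice, 3.20 to 6.42). After thinning CD25 had 16.1 in 8 mice and CD304 3.61. CD106, CD86 and CD73 had 17.7, 9.95 and 6.22, but in only 2, 2 and 1 mice. CD127 had 2.49, CD8b 1.87, CD69 1.45, CD5 1.42, CD24 1.26, CD28 1.21 and CD90.2 1.13. The abundant CD45 and CD11a were near 1 (1.07 and 1.04), and so were CCR7 (0.99) and CD45R-B220 (1.00), the latter at the ratio of the wrong-allele antibodies.

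**Figure D5:**
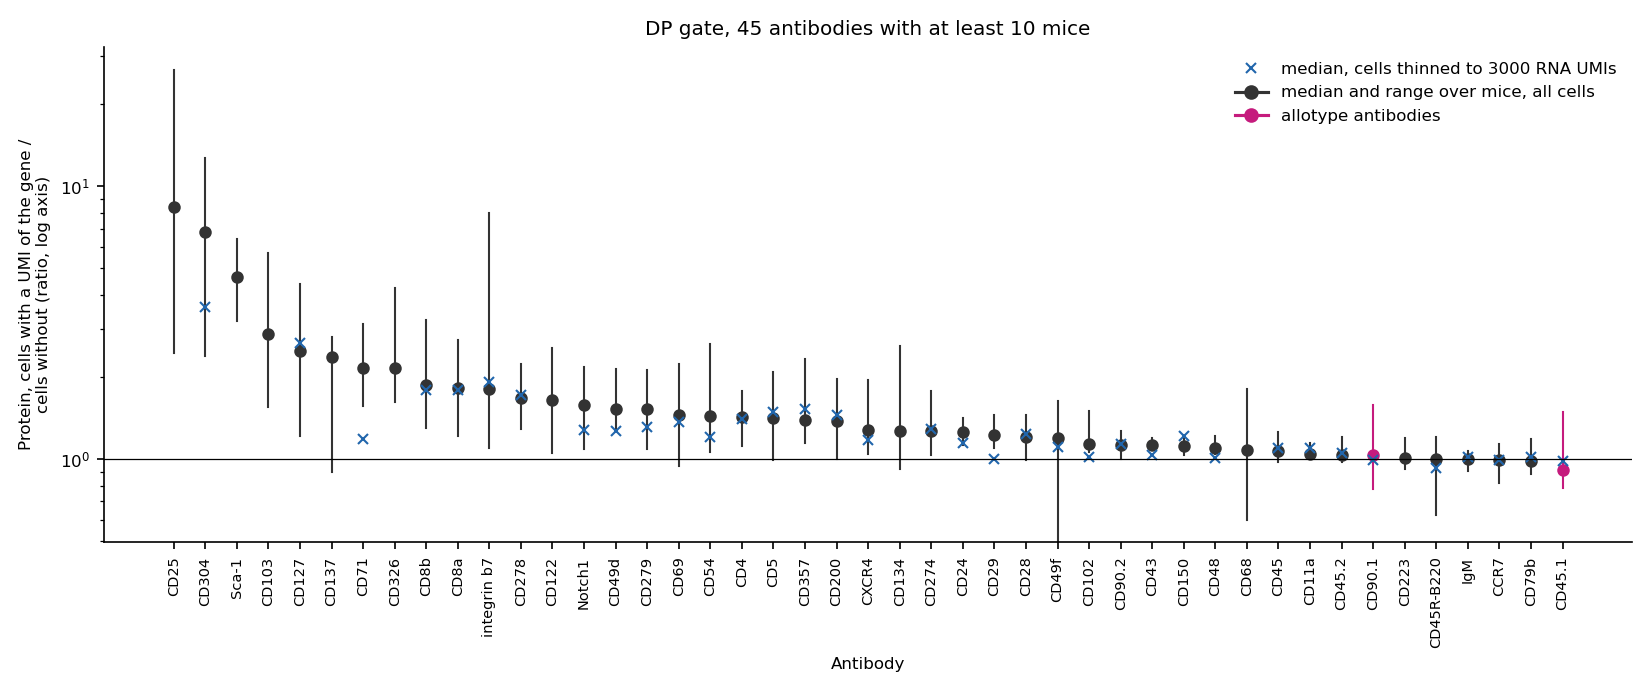
Ratio of mean protein level in DP cells with a UMI of the gene to that in DP cells without one (log axis), as the median over mice (point) with its range (line) and the value after thinning to 3000 UMIs (cross), for 45 of the 46 antibodies with at least 10 mice, CD4, CD8a, CD45.1 and CD90.1 included. CD25, CD304 and Sca-1 stand highest, CD45.1 and CD90.1 lie at 0.910 and 1.03, and the lowest mouse of CD49f, at 0 and from experiment 3, lies off the axis.

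Some genes share their 3′ end with other copies, where reads may be lost or split. Windows of 91 bases in the last 500 bases of each transcript were matched to the genome. Of the 94 genes, Ighd and Ighm had 0 windows mapped and could not be judged. At least 1 window matched elsewhere at 87 bases or more in 16 genes, led by Cd24a (78.05% of windows), Cd55 (45.12%), Ly6a (32%) and Cd63 (21.95%). The RNA levels of Cd24a, Cd55, Ly6a and Cd63 may be affected, but whether the copies are exons and whether reads were lost was not tested. The CD55 antibody rose by 1.58, 1.33 and 2.69 in the CD4 SP, CD8 SP and DN gates. Its low RNA was higher than in DP in 13 of 16, 13 of 14 and 12 of 15 mice, and the rho of CD55 with Cd55 was 0.84 over all sums.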

How the data were processed

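RNA and surface protein were measured by CITE-seq in single thymocytes of 17 mice. The authors deposited raw counts per lane, UMIs per gene or antibody and barcode, made with Cell Ranger 3.1.0 on the mouse mm10 reference per the labels and the study's methods, with no normalization. Antibodies were matched to genes by hand, and the members, gene lists and tests were chosen with earlier results of these data known. Cells had at most 15% mitochondrial UMIs, at least 200 genes, 1000 to 10000 antibody UMIs and at least 70 antibodies, as in the study, and doublets were called at 0.8% per 1000 barcodes. Gates were set per experiment on CD4 and CD8a, at 67.6 to 87.2 and 92.6 to 136 UMIs per 10000. UMIs were summed per mouse and gate (at least 20 cells), since cells are not replicates, the 2 lanes of a wild-type mouse being added. The study's own model (totalVI) was not run. Sums were tested with edgeR 4.0.16 (R 4.3.3), quasi-likelihood with TMM scaling and Benjamini-Hochberg adjustment over all genes or the 111 antibodies, with the mouse as a block for gates and the genotype family as a covariate for lineages. Standard errors were calculated from the F statistic. The scripts were tested on simulated counts. Levels in CPM and per 10000 carry no pseudocount. Named pairs followed a rule: pairs always named (of which 17 are printed, the other not being reported here), every opposite pair, per comparison the 6 largest changes called in both molecules and the 4 largest called in RNA or in protein alone, the 8 highest and 8 lowest correlations and the 6 highest cell ratios. Not every change named by the rule is printed, among them those of CD49f and Notch1 in the CD8 SP gate and of CD137 in the DN gate. Alternatives were DESeq2 1.42.0, library-size scaling, no low-count filter, RNA filters only, doublets kept, subsets of mice and leaving out each mouse. Matches of 3′ ends used minimap2 2.31 on GRCm38. The features outside the panel were not used.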

Additional observations from a re-analysis of the deposited data

Results flagged for a closer look

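Values of the named pairs among wild-type mice were searched for a mouse far from the rest of its gate, in 328 tests. Of these, 31 met Dixon's criterion, where chance flags about 1 in 20 groups.

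Wild-type replicate 5, of experiment 3, stood apart in RNA. Its 2 lanes had the lowest RNA depth of the 19, with medians of 1551 and 1498 UMIs per cell against 2824 and 3455 in wild-type replicate 4 of the same experiment, and the part of depth was not tested. Its coreceptor RNA appeared in gates whose antibody was low: Cd4 had 36.7 CPM in the CD8 SP gate (1.22 to 4.601 in the others) and 22.6 CPM in the DN gate (2.52 to 5.57), Cd8a had 105 CPM in the CD4 SP gate (28.9 to 40.4) and 78.3 CPM in the DN gate (12.3 to 19.0), and Cd8b1 had 287 CPM in the CD4 SP gate (50 to 72.0) and 207 CPM in the DN gate (25.1 to 58.5). Il2ra had 25.1 CPM in the DP, 96.6 CPM in the CD4 SP and 21 CPM in the CD8 SP gate, above 2.98 to 6.54, 10.3 to 30.1 and 0 to 3.45 CPM. Tnfrsf18 was low, at 22 CPM in the DP gate (44.3 to 47.8) and 72.2 CPM in the CD4 SP gate (147 to 168). Itga4 had 125 CPM in the CD4 SP and 127.5 CPM in the CD8 SP gate. Vcam1 had 9.45, 11.3 and 1.75 CPM in the DP, CD4 SP and CD8 SP gates. In the CD4 SP gate Ccr2 had 16.3 CPM, Cd63 17.0 CPM and Cd68 13.8 CPM, and Cd93 had 2.91 CPM in the CD8 SP gate.

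Wild-type replicate 1, of experiment 1, stood apart in protein. Its Notch1 antibody read 59.4, 68.4, 77.2 and 92.4 per 10000 in the DP, CD4 SP, CD8 SP and DN gates, where the other wild-type mice read 13.8 to 20.3, 11.3 to 22.5, 16.5 to 30.3 and 29.9 to 37.4. Its CXCR4 antibody read 21.6 per 10000 in the CD4 SP and 23.3 per 10000 in the CD8 SP gate, against 8.71 to 10.1 and 9.22 to 10.5. IRF4 read 18.7 per 10000 and CD127 10.9 per 10000 in its DP gate, and CD45 read 629.6 per 10000 in its DN gate, against 1727 to 2153. Il7r had 388 CPM in the DN gate of wild-type replicate 2, and Slamf1 had 22.6 CPM in the CD4 SP gate of wild-type replicate 3, below 35.6 to 38.6 CPM.

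Antibody features outside the panel of 111 held 527415 UMIs in experiment 1, over 3 features, and 21256 UMIs in experiment 3, over 99 features. They were used in no comparison. What lies behind these values was not tested.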

How the results depend on the processing

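Of 3242 alternatives of 109 named values, 3044 kept the direction and the side of the threshold, 187 lost the call and 11 changed sign. All 11 were protein changes, under library-size scaling unless another setting is named: in the CD8 SP gate CCR7 went to 0.0011, CD137 to 0.051 (0.013 with RNA filters only) and CD45.1 to 0.043 (0.00954 in lineage-restricted mice only), and in the DN gate CCR2 went to 0.23, CCR7 to 0.071, CD45.1 to 0.042, CD63 to 0.24, CD68 to 0.029 and CD90.1 to 0.048. The cause was not tested.

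Pairs moving the same way in the CD4 SP, CD8 SP and DN gates numbered 22, 21 and 26, and 22, 19 and 26 under library-size scaling, 23, 21 and 28 with DESeq2, 25, 26 and 30 without the filter, 22, 20 and 26 in wild-type mice, and 19 to 22, 17 to 22 and 25 to 27 on leaving out 1 mouse. In lineage-restricted mice only, an alternative chosen after seeing the data, the CD4 SP count was 10. In the mice that can make the lineage (wild-type and CD4-fated), another such alternative, it was 26. Without the mouse as a block (no replicate block) the counts were 15, 14 and 25. Replicate numbers mark the experiment in the AND and F5 family and were not shown to pair the mice of the other families (correlations of deviations 0.031, 0.364 and 0.742 in RNA and 0.373, 0.322 and -0.062 in protein), and with the replicate block the lineage count was 0, as without it, while RNA calls of Il2rb (-2.56, adjusted p = 0.0377) and Itgb7 (-1.14, adjusted p = 0.0454) were gained. Leaving out 1 mouse gave 0 to 1.

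The median rho of 0.486 became 0.269 with no minimum CPM, 0.532 from 20 CPM, 0.514, 0.469 and 0.635 within experiments 1, 2 and 3, 0.299 in DP sums, 0.577 centred on the mouse, 0.538 with CD4 and CD8a left out of the total, 0.473 with doublets kept, 0.501 as Pearson's r (0.506 with other pseudocounts) and 0.468 to 0.506 without 1 mouse. Across pairs within a mouse, rho was 0.362 from 5 CPM and 0.604 without allotype, isoform and intracellular antibodies.

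Among the CD8 SP calls lost on leaving out 1 mouse were CD304 (6 mice), CXCR4 (7), CD45R-B220 (5), CD45.1 (9) and CD90.1 (6), each lost without F5 replicate 2, MHCII-/- replicate 1 or 2 or wild-type replicate 2 or 3. To these CD304 adds wild-type replicate 1, CXCR4 adds OT-I replicates 1 and 2, CD90.1 adds OT-I replicate 1, and CD45.1 adds OT-I replicates 1 and 2, OT-II replicate 1 and wild-type replicate 1. The CD304 call in the DN gate was lost without AND replicate 2, MHCII-/- replicate 1 or 2, OT-I replicate 1, OT-II replicate 2 or wild-type replicate 2 or 3 (-0.63 to -0.52), and the Ccr7 RNA call there without F5 or MHCII-/- replicate 2. Lower protein calls among members ran from 22 to 52, 22 to 51 and 29 to 41 over the gates.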

Other observations

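The pairs of these paragraphs lie outside the rule for named pairs and were chosen after their values were seen. Of the 12 costimulation pairs in the CD4 SP gate, 6 were called in both molecules, 2 in RNA alone, 1 in protein alone and 2 in neither. The RNA of 1 was not tested. CD137 rose in RNA by 1.83 (edgeR adjusted p = 1.1e-05) with protein at 0.03 (adjusted p = 0.608). CD134 (OX40) had Tnfrsf4 at 4.97 CPM in DP (1.21 to 22.3) and 34.7 CPM in CD4 SP cells (0.653 to 188), a rise of 3.1 ± 0.39 (14 of 16 mice, edgeR adjusted p = 3.2e-06). Its antibody rose by 0.34 ± 0.11 (14 of 16 mice, adjusted p = 0.0156), from 21.6 (6.39 to 109) to 27.9 per 10000 (7.1 to 151). CD200, a ligand of an inhibitory myeloid receptor, rose by 0.67 ± 0.10 in protein and 1.31 ± 0.21 in RNA, both in 15 of 16 mice. CD274 (PD-L1) rose by 0.64 ± 0.09 in protein (16 of 16 mice, adjusted p = 2.6e-05) and 0.63 ± 0.18 in RNA (10 of 16, adjusted p = 0.00514). CD43 (Spn, leukosialin) rose by 0.45 ± 0.07 and 0.64 ± 0.13 in the CD4 SP gate.

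In the DN gate, CD117, the receptor for stem cell factor on early progenitors, rose in 15 of 15 mice in both molecules, by 1.23 ± 0.22 in protein (21.3 to 68.2 per 10000 at the median) and 3.54 ± 0.18 in Kit RNA (1.35 to 17.7 CPM). CD279 (PD-1) rose by 1.28 ± 0.14 and 2.45 ± 0.16, also in 15 of 15 mice, from 22 to 86.2 per 10000 and from 17.9 to 79.6 CPM. CD71, the transferrin receptor of dividing cells, rose by 1.01 ± 0.18 and 0.94 ± 0.12. CD326 (Epcam) rose by 1.21 ± 0.21 and 2.38 ± 0.20 in 15 of 15 mice. CD38 protein rose without overlap, from 15.3 (10.4 to 32) to 65.9 per 10000 (37.8 to 141), with RNA at 4.25 CPM (0 to 12.3) and untested. CD29 (Itgb1) rose by 0.54 ± 0.13 in protein in 15 of 15 mice, with RNA at 0.07 ± 0.07 (adjusted p = 0.421). FceRIa, at 0 CPM in every sum, was also higher per 10000 in 15 of 15 mice.

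Ighm, the gene of the IgM heavy chain, had 282 CPM in DP cells (195 to 459.9), and its antibody read 4.40 per 10000 (1.87 to 18.5), close to the CD45.1 and CD45R-B220 levels. From DP to CD4 SP cells Ighm fell by 1.15 ± 0.09 in 16 of 16 mice (adjusted p = 3.53e-08) and the antibody by 0.20 ± 0.04 in 13 of 16. CD79b, its signalling partner in B cells, had 18.5 CPM (6.23 to 44.1) with 6.65 per 10000 (3.17 to 33.9).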
